A study of Mus musculus with 2 samples.

Results

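The regions described here are the stretches of H3K9ac signal that the authors' deposited table marks as downstream of their assigned gene, with no overlap. They were taken by the table's orientation column, on chromosomes 1 to 19 except 15, and numbered 2248 of 20615 regions in all. By the table's distance to the assigned gene, 202 lay under 2 kb away, 819 lay 2 to 10 kb away and 1227 lay above 10 kb away, up to 49994 bp. They carry 1741 gene symbols, are 300 to 3900 bp long and have a median length of 900 bp. H3K9ac, acetylation of lysine 9 of histone H3, was read by ChIP-seq (precipitation of chromatin with an antibody, then sequencing of its DNA) in leukemic spleen cells of mice, from which red cells had been lysed. Both mouse lines carry the NUP98/HOXD13 fusion, a driver of myelodysplasia and leukemia, and a human cDNA for the repressor GFI1. The strain labelled Gfi1 36S/S-Nup98/HoxD13 carries the form with serine at residue 36, called 36S below, and the strain labelled Gfi1 36N/N-Nup98/HoxD13 carries the form with asparagine there, called 36N. There was 1 library per genotype, so no difference has a replicate check and no test between genotypes was made. The sources used here do not give the number or age of the mice behind a library, or the promoter that drives the fusion.

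H3K9ac is laid down by histone acetyltransferases such as GCN5 and PCAF and removed by histone deacetylases. It is densest at active gene starts and is also found at active enhancers, which can lie far from the gene they act on. GFI1 is a zinc finger repressor of blood cell development that recruits histone deacetylases and the demethylase LSD1 to chromatin, so regions outside gene bodies are among the places where its action can be read.

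The word downstream in the table does not mean beyond the end of the gene. The assigned gene was found in RefSeq for 1826 of the regions, and 237 of these overlapped the RefSeq model of that gene. Of the 1216 that lay outside the model of a gene with a known strand, 1214 (99.8%) were on its 5′ side, before its start. The other 2, assigned to Gm10778 and Srp54a, were on the 3′ side. Of the 2043 regions that the table marks as upstream, 1225 of the 1230 that could be checked (99.6%) lay on the 3′ side. The marking therefore gives the place of the gene seen from the region, and outside the 237 that overlap the model of their own gene nearly all regions that could be checked lay before the gene's start. They are called 5′ flanking regions from here on, and distances are to the assigned gene as the table gives them.

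A reference genome was not used here, so the sequence of the regions themselves is not shown. Some 5′ flanking regions hold a start of a RefSeq gene, and for those the promoter gives the DNA under part of the signal. The 6 promoters printed here belong, in each distance bin, to the region with the highest and the region with the lowest difference between genotypes among those at or above the median level that hold a start of a gene with a full name. Each runs from 250 bases before to 50 bases after the start, in RefSeq's GRCm38.p6 sequence, written 5′ to 3′ on the gene's strand, with CG dinucleotides in capitals. Nt5dc2 lies at chr14:31130839-31131138 on the plus strand, Cyp2ab1 at chr16:20325355-20325654 on the minus strand, and Slfn14 at chr11:83286677-83286976 on the minus strand. Zfp267 lies at chr3:36150830-36151129 on the plus strand, Zfp951 at chr5:104859978-104860277 on the minus strand, and Smco4 at chr9:15493182-15493481 on the plus strand.
Nt5dc2: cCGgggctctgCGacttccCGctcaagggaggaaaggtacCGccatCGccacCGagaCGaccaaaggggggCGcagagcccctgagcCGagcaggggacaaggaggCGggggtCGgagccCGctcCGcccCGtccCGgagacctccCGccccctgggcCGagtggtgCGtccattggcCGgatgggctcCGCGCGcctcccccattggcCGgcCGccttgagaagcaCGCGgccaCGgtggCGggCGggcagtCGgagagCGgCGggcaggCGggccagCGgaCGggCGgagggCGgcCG
Cyp2ab1: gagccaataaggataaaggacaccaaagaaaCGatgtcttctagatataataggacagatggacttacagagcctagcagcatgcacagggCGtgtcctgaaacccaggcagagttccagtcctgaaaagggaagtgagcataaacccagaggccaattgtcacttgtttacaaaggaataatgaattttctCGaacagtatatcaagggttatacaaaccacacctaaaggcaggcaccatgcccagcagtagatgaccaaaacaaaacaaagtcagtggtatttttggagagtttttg
Slfn14: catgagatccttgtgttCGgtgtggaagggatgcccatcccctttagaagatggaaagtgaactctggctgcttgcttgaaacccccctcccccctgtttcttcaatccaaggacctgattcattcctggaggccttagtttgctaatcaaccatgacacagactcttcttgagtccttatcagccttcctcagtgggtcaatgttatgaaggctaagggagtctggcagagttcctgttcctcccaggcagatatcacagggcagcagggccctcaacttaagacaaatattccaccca
Zfp267: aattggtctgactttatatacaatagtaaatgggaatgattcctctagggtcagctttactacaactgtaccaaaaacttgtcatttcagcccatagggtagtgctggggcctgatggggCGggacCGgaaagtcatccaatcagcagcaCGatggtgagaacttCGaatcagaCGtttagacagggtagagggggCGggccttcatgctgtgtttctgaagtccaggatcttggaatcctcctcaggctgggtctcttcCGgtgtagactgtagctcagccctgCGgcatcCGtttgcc
Zfp951: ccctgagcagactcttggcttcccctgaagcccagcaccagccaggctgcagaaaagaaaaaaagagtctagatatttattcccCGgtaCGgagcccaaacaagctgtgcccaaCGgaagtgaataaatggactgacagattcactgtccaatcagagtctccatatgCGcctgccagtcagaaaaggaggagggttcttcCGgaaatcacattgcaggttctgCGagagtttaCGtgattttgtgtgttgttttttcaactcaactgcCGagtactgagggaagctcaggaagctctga
Smco4: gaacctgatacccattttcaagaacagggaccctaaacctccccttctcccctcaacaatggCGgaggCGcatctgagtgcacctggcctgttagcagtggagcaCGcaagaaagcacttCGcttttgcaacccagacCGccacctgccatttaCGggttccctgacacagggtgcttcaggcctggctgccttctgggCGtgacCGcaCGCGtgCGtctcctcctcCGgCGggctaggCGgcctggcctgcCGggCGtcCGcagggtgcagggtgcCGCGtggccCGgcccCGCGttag

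The letters of these promoters differed widely. The Nt5dc2 promoter held 38 CG dinucleotides and the Smco4 promoter 22, while those of Zfp267, Zfp951, Cyp2ab1 and Slfn14 held 9, 8, 3 and 1. The median over 32851 RefSeq promoters of the same length was 7. The motif CCAAT, searched on both strands, was found in the promoters of Nt5dc2, Cyp2ab1, Zfp267 and Zfp951, and in 37.4% of all promoters. GATAA, the core recognised by GATA factors, was found in those of Cyp2ab1 and Slfn14 and in 25.4% of all. AATCAC, which holds the AATC core that GFI1 recognises, occurred 2 times in the Zfp951 promoter and in none of the other 5 printed, against 10.4% of all promoters. CCAAT and AATCAC share letters, so that a single stretch can hold both. These are matches of letters and not measured binding sites.

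The 5′ flanking regions were weak next to the regions that overlap genes. Read numbers were recovered from the deposited log2 values: the 36S values were whole reads, and the 36N values were whole reads multiplied by 1 constant, 1.02. Differences are given as deposited, 36N minus 36S in log2 units, with the constant included. A 5′ flanking region had a median of 42 reads in 36S and 39 in 36N, against 180 and 143 in regions overlapping a gene. Per kb of length the medians were 51.1 and 46.7 reads, against 99.4 and 81.1. Together the regions held 179063 of the 4989632 reads in 36S regions (3.59%) and 138884 of the 3292869 in 36N regions (4.22%). At the median level the 95% half-width from counting error was 30.2% in 36S and 31.4% in 36N. A single region was counted as higher or lower where its difference was 1 log2 unit (2-fold) or more, which is a rule of size and not a test. The 95% intervals given for single regions are exact conditional (Clopper-Pearson) intervals of the 2 read numbers and cover counting error only, not the spread between mice or precipitates.

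Across all 2248 regions, H3K9ac was slightly lower in 36N, with a median difference of -0.13 and quartiles of -0.65 and 0.39. Of these, 180 (8.01%) were higher in 36N by 1 log2 unit or more, where 7.73% of all 19158 regions of the same chromosomes were. A further 303 (13.5%) were lower by that much, where 12.5% of all were. Both shares thus lay near the background. For 165 of the higher and 300 of the lower regions the counting interval also left out 0. Over all sizes of difference, the interval lay above 0 in 286 regions (12.7%), against 13.8% of all regions. It lay below 0 in 627 (27.9%), against 46.2% of all. All regions had higher read numbers, which give narrower intervals, and also a lower median difference, -0.37. The part of each in the gap was not tested. The median of the 5′ flanking regions stood above that of the regions overlapping genes, at -0.47, and close to that of the regions on the 3′ side of genes, at -0.12. Regions with no assigned gene had a median of 0.03. These are descriptions of 2 libraries, and no difference between kinds of region was tested. In a mixed spleen sample, fewer cells of a type and less H3K9ac per cell cannot be told apart.

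The difference did not move evenly with distance. Under 2 kb the median was 0.02 (quartiles -0.58 and 0.52), with 21 regions (10.4%) higher and 18 (8.91%) lower. At 2 to 10 kb the median was -0.21 (quartiles -0.73 and 0.31), with 62 (7.57%) higher and 119 (14.5%) lower. Above 10 kb it was -0.10 (quartiles -0.61 and 0.42), with 97 (7.91%) higher and 166 (13.5%) lower. The regions nearest the gene were thus the ones with about as many higher as lower, and the quartiles of the 3 bins overlapped along most of their length. The median of the nearest bin changed sign where weak regions were left out: among its 160 regions with a mean of at least 20 reads it was -0.15, beside -0.16 above 10 kb. Within the nearest bin, the 125 regions within 1 kb had a median of 0.15, with 15 higher and 9 lower, and the 77 at 1 to 2 kb had a median of -0.28, with 6 higher and 9 lower. From 2 to 5 kb, 5 to 10 kb, 10 to 20 kb and 20 to 50 kb the medians were -0.19, -0.22, -0.16 and -0.03. On the 3′ side of genes the regions under 2 kb had a median of -0.14, with 13 (5.26%) higher and 33 (13.4%) lower. The share of lower regions near the gene was thus smaller on the 5′ side than on the 3′ side in these 2 libraries.

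**Figure D1:**
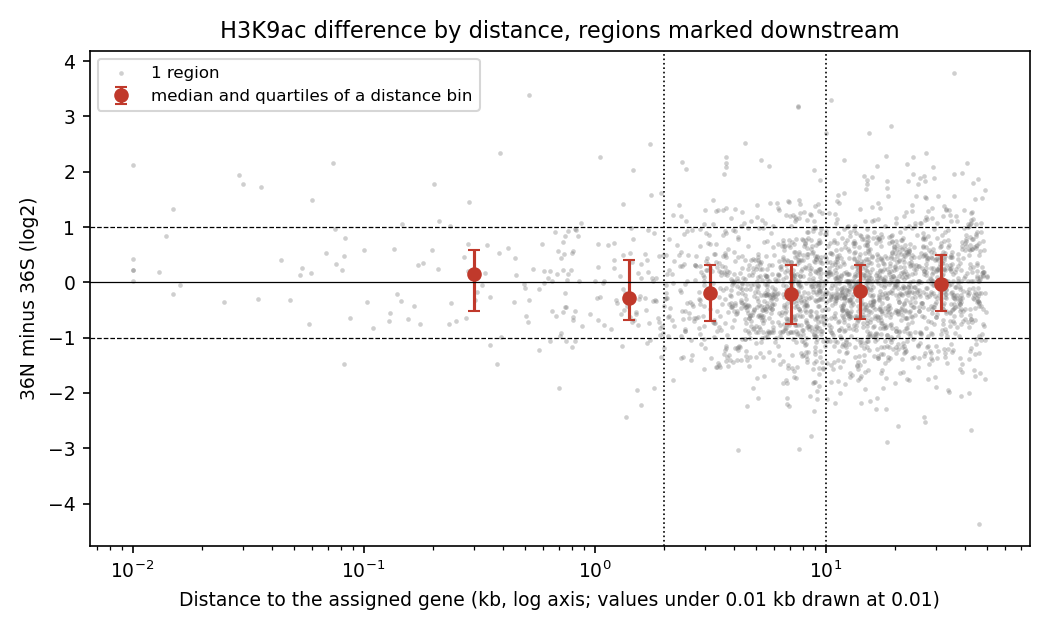
Difference in H3K9ac between 36N and 36S (log2, vertical axis) for each 5′ flanking region against its distance to the assigned gene in kb (horizontal log axis). Red points and bars are the median and quartiles of 6 distance bins. The median is 0.15 within 1 kb, lies between -0.28 and -0.16 from 1 to 20 kb and is -0.03 beyond 20 kb, and single regions range from -4.37 to 3.78.

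These counts depend on the point from which a difference is measured. The median of all regions on the same chromosomes was -0.37. Measured from it, 41 regions under 2 kb were higher and 7 lower, 124 and 59 at 2 to 10 kb, and 205 and 75 above 10 kb, against 14.0% higher and 4.68% lower of all regions. On that scale the medians of the 3 bins were 0.39, 0.15 and 0.27. All 3 medians thus lay above 0 on that scale. The libraries hold no spike-in or input that was used here, so neither point can be preferred from the data.

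The level of a region moved with its difference. The regions were put in 4 groups of 562 by their mean level, with edges at 23.7, 40.2 and 74.4 reads. From the weakest to the strongest group the medians were 0.14, 0.03, -0.18 and -0.48. The share of higher regions went from 15.5% in the weakest group to 10.3%, 4.63% and 1.60% in the strongest. The share of lower regions went from 6.58% to 13.2%, 14.8% and 19.4%. The stronger a 5′ flanking region was, the more often it was lower in 36N. Regions overlapping genes followed the same order with other shares: at the same levels 23.5%, 17.9%, 14.4% and 2.19% of them were higher, and 8.82%, 10.2%, 11.8% and 13.1% were lower. In each of the 3 weaker groups, therefore, a region over a gene was more often higher than a 5′ flanking region of like level. Regions on the 3′ side had 13.6%, 8.69%, 4.51% and 1.74% higher, close to the 5′ side in every group.

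**Figure D2:**
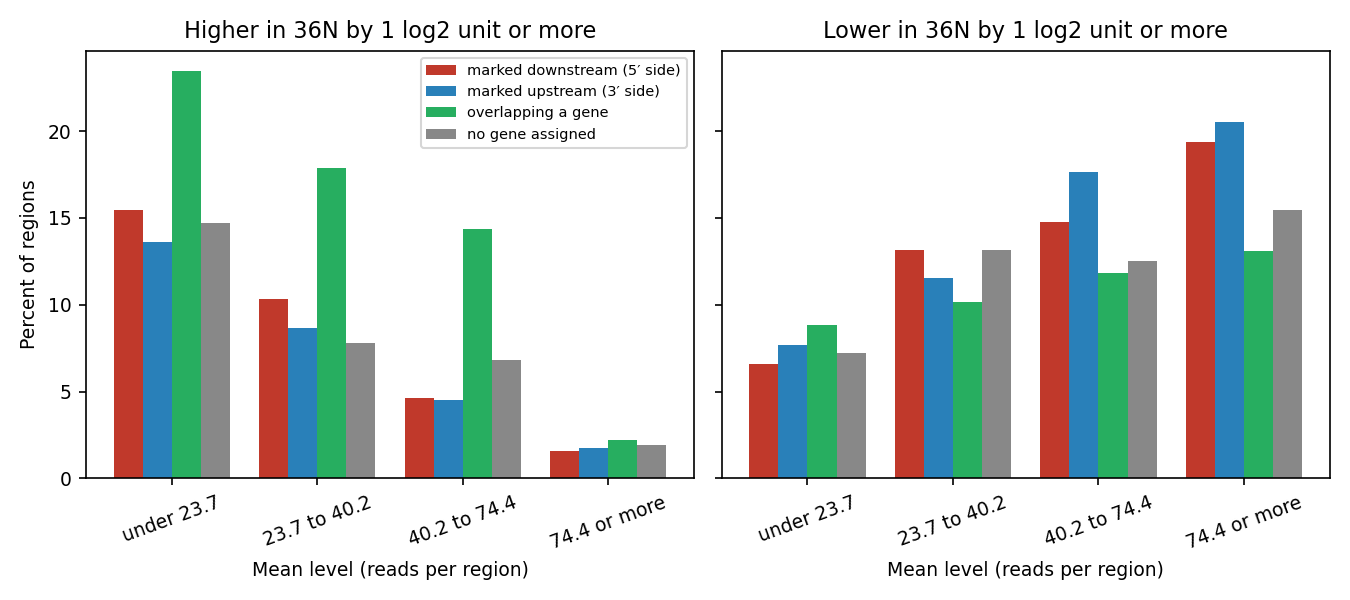
Percent of regions that were higher (left) or lower (right) in 36N by 1 log2 unit or more, in 4 groups of mean level in reads per region, for 4 kinds of region. Among 5′ flanking regions (red) the share higher falls from 15.5% to 1.60% and the share lower rises from 6.58% to 19.4% with level, while regions overlapping genes (green) reach 23.5% higher in the weakest group.

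A level-adjusted difference was therefore also computed, as what remained after a smooth curve of difference against mean level, drawn through all regions, was subtracted. On that scale 7.38% of the 5′ flanking regions were higher and 12.0% lower, against 8.35% and 7.46% of all regions. Their median was -0.08, and the bins from near to far had medians of 0.06, -0.14 and -0.07. Under 2 kb 4.95% were lower, at 2 to 10 kb 13.1% and above 10 kb 12.5%. The nearest bin thus remained the one with the smallest share of lower regions after adjustment for level. By chromosome, the deposited median ran from -0.33 on chromosome 5 to 0.03 on chromosome 3.

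Some of the regions hold a gene start. Starts could be looked up for 2185 regions, all but the 63 on chromosome 18. A RefSeq start lay in 207 of them (9.47%), and in 72 of these it was a start of the assigned gene itself, which shows that the table's gene models and RefSeq's begin at different places. A further 672 overlapped a RefSeq gene without holding a start, and 1306 (59.8%) overlapped none. Regions with a start were stronger, at medians of 98 reads in 36S and 87 in 36N, against 39 and 35 in regions with no RefSeq gene. The classes are given below as start, gene without a start, and neither. In the same sequence of classes, 23 (11.1%), 56 (8.33%) and 94 (7.2%) regions were higher and 27 (13.04%), 75 (11.2%) and 190 (14.5%) lower, beside 8.01% and 13.5% of all 5′ flanking regions. As deposited, the median of regions with a start was -0.26, against -0.09 in regions with a gene but no start and -0.15 in those with neither. After adjustment for level the order was another, with medians of 0.11, -0.04 and -0.13. Starts were most frequent close to the assigned gene, in 18.2% of the regions under 2 kb against 8.89% and 8.42% of the farther bins. Under 2 kb the level-adjusted medians were 0.33 with a start, 0.09 with a gene but no start and -0.06 with neither, and the deposited ones 0.12, 0.02 and -0.11. At 2 to 10 kb they were 0.18, -0.06 and -0.23 adjusted and -0.24, -0.10 and -0.25 deposited. Above 10 kb they were -0.01, -0.07 and -0.07 adjusted and -0.33, -0.10 and -0.08 deposited. The order of the classes was thus the same on both scales under 2 kb only, and beyond 2 kb it depended on the adjustment for level. How far the starts account for the difference between distance bins was not tested.

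**Figure D3:**
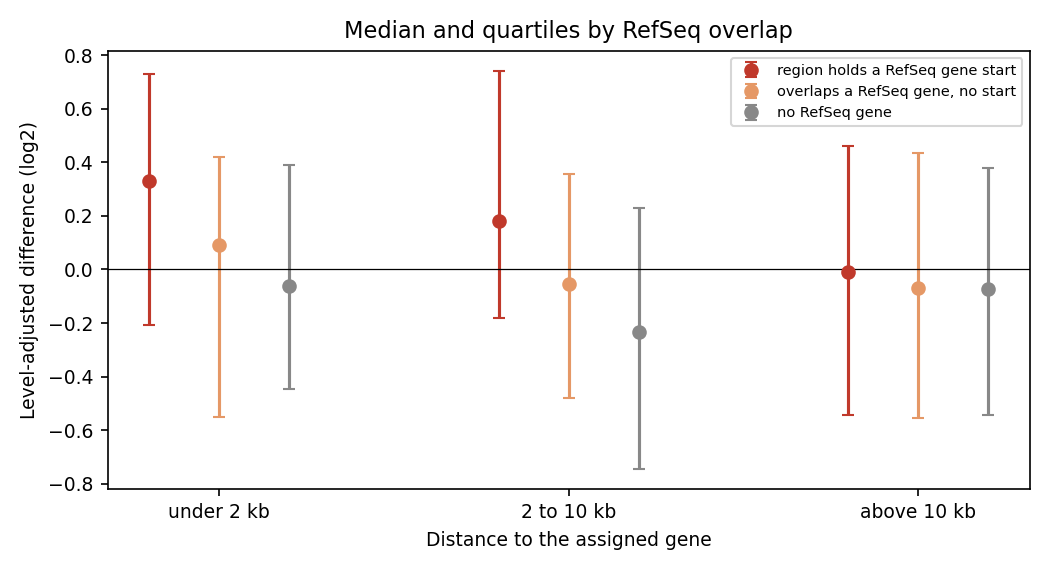
Level-adjusted difference in H3K9ac (36N minus 36S, log2; points are medians and bars quartiles over regions) in 3 distance bins, for regions that hold a RefSeq gene start, overlap a RefSeq gene without its start, or overlap none. The order depends on the adjustment beyond 2 kb. Under 2 kb the medians are 0.33, 0.09 and -0.06, and above 10 kb they lie between -0.07 and -0.01.

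Regions with a start were also divided by the number of CG in the promoter. In 141 regions the promoter with the most CG held at least 7, the median of all promoters, and in 66 it held fewer. Of the 141 CG-rich regions 19 were higher and 9 lower, and of the 66 CG-poor regions 4 were higher and 18 lower. Among all 5′ flanking regions 8.01% were higher and 13.5% lower. The deposited medians of the classes were close, at -0.24 and -0.28, with upper quartiles of 0.54 and 0.21 and lower quartiles of -0.57 and -1.07. After adjustment for level the medians were 0.21 and -0.17. The classes thus differed in their extremes rather than in their deposited medians. The CG-rich regions were also the stronger ones, with medians of 109 reads in 36S and 103 in 36N against 80 and 69.5. The promoters shown above include cases of both kinds and exceptions. At the Slfn14 start, poor in CG, 233 reads in 36S stood against 80 in 36N, a difference of -1.52. SLFN14 is a ribosome-associated endoribonuclease of platelets and red cells. At the CG-rich Smco4 start 83 reads stood against 193, a difference of 1.24. The CG-rich Nt5dc2 start went the other way with 520 and 231 reads (-1.14, or -0.47 after adjustment for level), and the CG-poor Cyp2ab1 start had 44 and 70 (0.70). At the Zfp951 start there were 87 and 36 reads (-1.25).

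The regions named next are, in each bin, the 4 highest and the 4 lowest among those at or above the median level of 40.2 reads whose assigned gene has a full name. There were 742 such regions, of which 48 lay under 2 kb, 315 at 2 to 10 kb and 379 above 10 kb. By the rule of size 0, 12 and 9 of them were higher and 4, 62 and 68 were lower. At this level the lower regions thus outnumbered the higher ones in every bin, as measured from 0. This was also so among all regions of like level on the same chromosomes. From 40.2 to 74.4 reads 10.8% of those were higher and 13.3% lower, and above that 2.13% and 13.9%.

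Under 2 kb, the lowest regions belonged to genes of unlike function. The Pdpk1 region (chr17:24151501-24153150, 577 bp from the gene) held 214 reads in 36S and 90 in 36N, a difference of -1.22 with an interval from -1.59 to -0.86. PDPK1 is the kinase that activates AKT by phosphorylating its activation loop, and the region lies within the RefSeq model of the gene. The strongest region over Pdpk1 itself held 639 and 401 reads (-0.65), so both places lay below 0. The Mical3 region, within the RefSeq model of this actin-oxidising monooxygenase gene, held 109 and 47 reads (-1.19), and that before Ccin, which encodes the sperm head protein calicin, held 149 and 67 (-1.13). The region assigned to Zfp498, called Zscan25 in RefSeq, holds the start of that zinc finger gene and had 488 and 232 reads (-1.05). After adjustment for level the regions of Pdpk1, Ccin and Zfp498 were at -0.86, -0.88 and -0.38, and centred on the median region all 4 were above -1. None of the highest 4 in this bin reached 1 log2 unit. They were Zfp167 (RefSeq Zkscan7, a zinc finger gene) with 66 and 122 reads (0.91), C1ql1 with 32 and 54 (0.78), Cyp2ab1 with 44 and 70 (0.70), and Nfatc4 with 56 and 79 (0.52). C1QL1 is a secreted synaptic protein and NFATC4 a calcium-regulated transcription factor. The interval of the Nfatc4 region, 0.01 to 1.04, only just left out 0, and the region holds the start of another RefSeq gene, Gm41159.

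At 2 to 10 kb the 4 highest and 4 lowest regions lay further from 0 than those under 2 kb. They were taken from 315 regions, against 48 under 2 kb, and a larger set reaches further at its ends. The quartiles of the 2 bins given above show no wider spread at 2 to 10 kb. The lowest region lay 8882 bp before Med10, a subunit of the Mediator complex that links transcription factors to RNA polymerase, at chr13:69799351-69801000. It held 123 reads in 36S and 24 in 36N, a difference of -2.33 with an interval from -3.03 to -1.69. The strongest region over Med10 held 736 and 346 reads (-1.06), a smaller difference in the same direction. The Capns1 region held 105 and 24 reads (-2.10), against -0.82 over the gene, which encodes the small subunit of calpain proteases. The region 6815 bp before Tgm2, tissue transglutaminase, held 169 and 39 (-2.09). The Mylk3 region held 108 and 29 (-1.87), against -1.39 over the gene for this myosin light chain kinase. All 4 thus lay in sequence that overlaps no RefSeq gene, and the 3 with a region over the gene were below 0 there too.

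The highest regions at 2 to 10 kb included zinc finger genes. The region assigned to D3Ertd254e, which is Zfp267 in RefSeq, lies at chr3:36150751-36151950 and holds the start of that gene, whose promoter is shown above. It had 17 reads in 36S and 151 in 36N, a difference of 3.18 with an interval from 2.45 to 3.99. The region 5246 bp before Zkscan3, a zinc finger repressor of autophagy genes, held 22 and 100 reads (2.21), while the strongest region over that gene held 427 and 281 (-0.58). The Snx13 region held 26 and 72 reads (1.5) and the region over Snx13, which encodes a sorting nexin, 1126 and 739 (-0.58). The Snx13 flanking region also holds the start of another RefSeq gene, Gm40386. The Ostc region held 31 and 80 (1.39) and the gene, for a subunit of oligosaccharyltransferase, 358 and 285 (-0.30). In these last 3 the deposited values of the flanking region and the gene had opposite signs. The gene values lay near the median of -0.53 of such gene regions, and that of Ostc lies above the median of all regions, -0.37, so its sign turns when centred.

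Above 10 kb, the lowest regions included those of signalling genes. The Cnih3 region, 16578 bp from a gene for an AMPA receptor auxiliary protein, held 90 reads in 36S and 18 in 36N (-2.30), with 108 and 110 over the gene (0.05). The Nrbf2 region at chr10:67296301-67299150 held 294 and 64 reads, a difference of -2.17 with an interval from -2.59 to -1.78. NRBF2 is part of a lipid kinase complex of autophagy, and the region over its gene was -0.73. The Nrarp region held 257 and 63 reads (-2.0), and the region over Nrarp, a feedback inhibitor of Notch, 454 and 144 (-1.63). The region 41762 bp before Pim1, at chr17:29447551-29449050, held 138 and 34 (-1.99). PIM1 is a kinase induced by cytokines through STAT5 that favours survival of blood cells.

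The highest region above 10 kb lay at chr10:45485551-45486750. By the distance given it lay 15350 bp from Lin28b, whose product blocks the maturation of let-7 microRNAs. It held 18 reads in 36S and 115 in 36N, a difference of 2.70 with an interval from 1.98 to 3.51. The strongest region over Lin28b held 226 and 87 (-1.35), so that the gene's signal stood on opposite sides of 0 at the 2 places. RefSeq's Lin28b model overlaps the flanking region, which holds no RefSeq start, so by RefSeq this region is part of the gene and not before it. The Slc47a1 region held 50 and 182 reads (1.89), before the gene of an exporter of organic cations, and overlaps a RefSeq tRNA gene. The Tlr5 region held 22 and 80 (1.89), and the region over Tlr5, the receptor of bacterial flagellin, 31 and 76 (1.32). The region before H2-T3, a non-classical MHC class I gene, held 39 and 139 (1.86). Counts on genes of large families such as H2-T3 and the zinc finger genes are uncertain, since reads of near-identical copies may have been shared or lost in the authors' alignment.

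**Figure D4:**
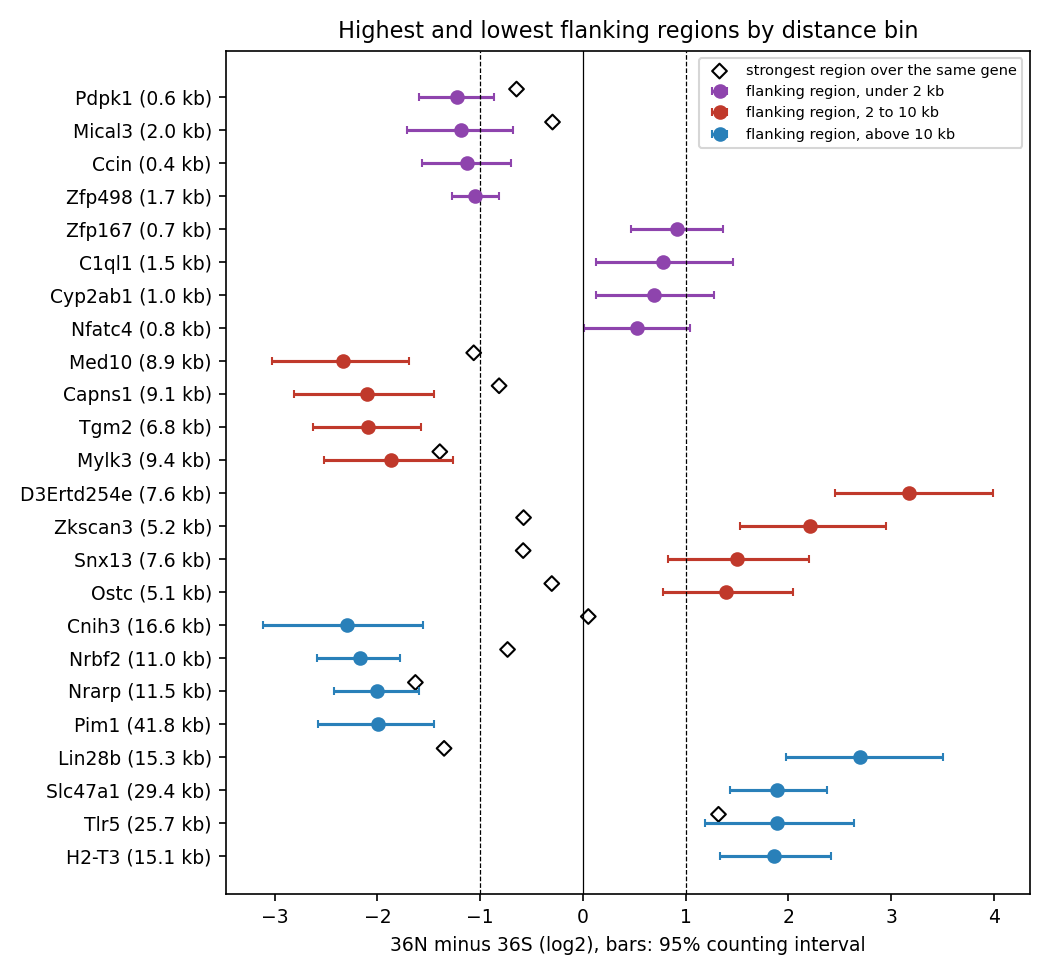
Difference in H3K9ac (36N minus 36S, log2; bars are 95% counting intervals) for the 4 lowest and 4 highest 5′ flanking regions of each distance bin at or above the median level, with the distance to the gene. Open diamonds show the strongest region over the same gene where the table has one. The values run from -2.33 (Med10) to 3.18 (D3Ertd254e), and the diamonds of Zkscan3, Snx13, Ostc and Lin28b lie below 0 while their flanking regions lie above 1.

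A flanking region and its gene went together only loosely. For 990 regions of 809 genes the table also has a region that overlaps the gene, and the strongest of these was taken. Across these pairs, which share both libraries and their depth, Pearson's r was 0.32 and Spearman's rho 0.34, and r was 0.29 after adjustment for level. The pairs are regions of 2 libraries and not independent replicates. Of the 990 gene regions, 117 were lower and 58 higher by the rule of size. Of the 155 flanking regions lower in 36N, 35 had a gene region that was also lower, and 9 had a gene region whose interval lay above 0. Of all regions overlapping a gene, 14.3% had an interval above 0. Of the 79 higher flanking regions, 13 had a gene region that was also higher, and 28 had one whose interval lay below 0, as did 53.8% of all regions overlapping a gene. The paired gene regions are the strongest of their genes, and the shares of such intervals among all 990 of them were not computed. The flanking region stood above its gene in 591 of the 990 pairs, where the medians were -0.20 for the flanking regions and -0.53 for the gene regions. The gene region was chosen for its strength, and the difference moved with level. Among regions overlapping genes the median was 0.27 in the weakest of the 4 level groups and -0.64 in the strongest. This gap was not computed after adjustment for level, and the part of level in it was not tested. By bin, r was 0.44 in 28 pairs under 2 kb, 0.40 in 362 pairs at 2 to 10 kb and 0.27 in 600 pairs above 10 kb.

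Some genes have several regions before their start, so that a locus can be read at several places. Of 1195 fully named genes 186 had at least 2 regions, 35 had at least 3 and none had over 5. All regions lay below 0 in 76 of these 186 genes, all above 0 in 36, and on both sides in 74. In 13 genes every region was lower by 1 log2 unit or more, in 2 every region was higher by that much, and 0 genes had both a higher and a lower region. Of all 1425 regions of fully named genes, 56.8% lay below 0, 14.5% were lower and 8.07% higher. How many such genes these shares alone would give was not computed, so the counts do not show that differences run along loci. The genes described in this paragraph and the next were chosen after their values were seen. Regions that adjoin were counted separately, as in Zfp808, 1 of the 13, whose regions are pieces of a single stretch. Ifngr2, a chain of the interferon gamma receptor, had 3 regions 12122 to 19022 bp from the gene, with 76, 226 and 63 reads in 36S and 34, 71 and 24 in 36N. The nearest adjoins the next, at chr16:91534351-91534950 and chr16:91532101-91534350, so these are not separate places along the locus. The differences of the Ifngr2 regions were -1.13, -1.64 and -1.37, and the strongest region over the gene was -0.76. Centred on the median region the nearest was at -0.77. Hmgb1, which encodes an abundant chromatin protein, had 257 and 74 reads in its nearer region (-1.77) and 44 and 17 in its farther one (-1.35). The nearer Hmgb1 region holds the start of another RefSeq gene, Gm30078. Tgm2 had a second region at 12965 bp with 139 and 43 reads (-1.67).

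Further loci with several regions were Zfp217, Rap1b and Gphn. Zfp217 had 5 regions between 3948 and 44298 bp, all below 0, from -1.30 to -0.49. Rap1b, a small GTPase of cell adhesion, had 4 regions with -1.49, 0.83, 0.10 and -2.66 from near to far. The last held 58 reads in 36S and 9 in 36N. Gphn, which encodes the scaffold protein gephyrin, had 2 weak regions of 7 and 15 reads in 36S and 19 and 33 in 36N (1.47 and 1.16). The strongest region over Gphn was 2.37, so that all of these values lay above 0. The nearer flanking region lies within RefSeq's model of Gphn, and other regions over the gene were not looked at.

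**Figure D5:**
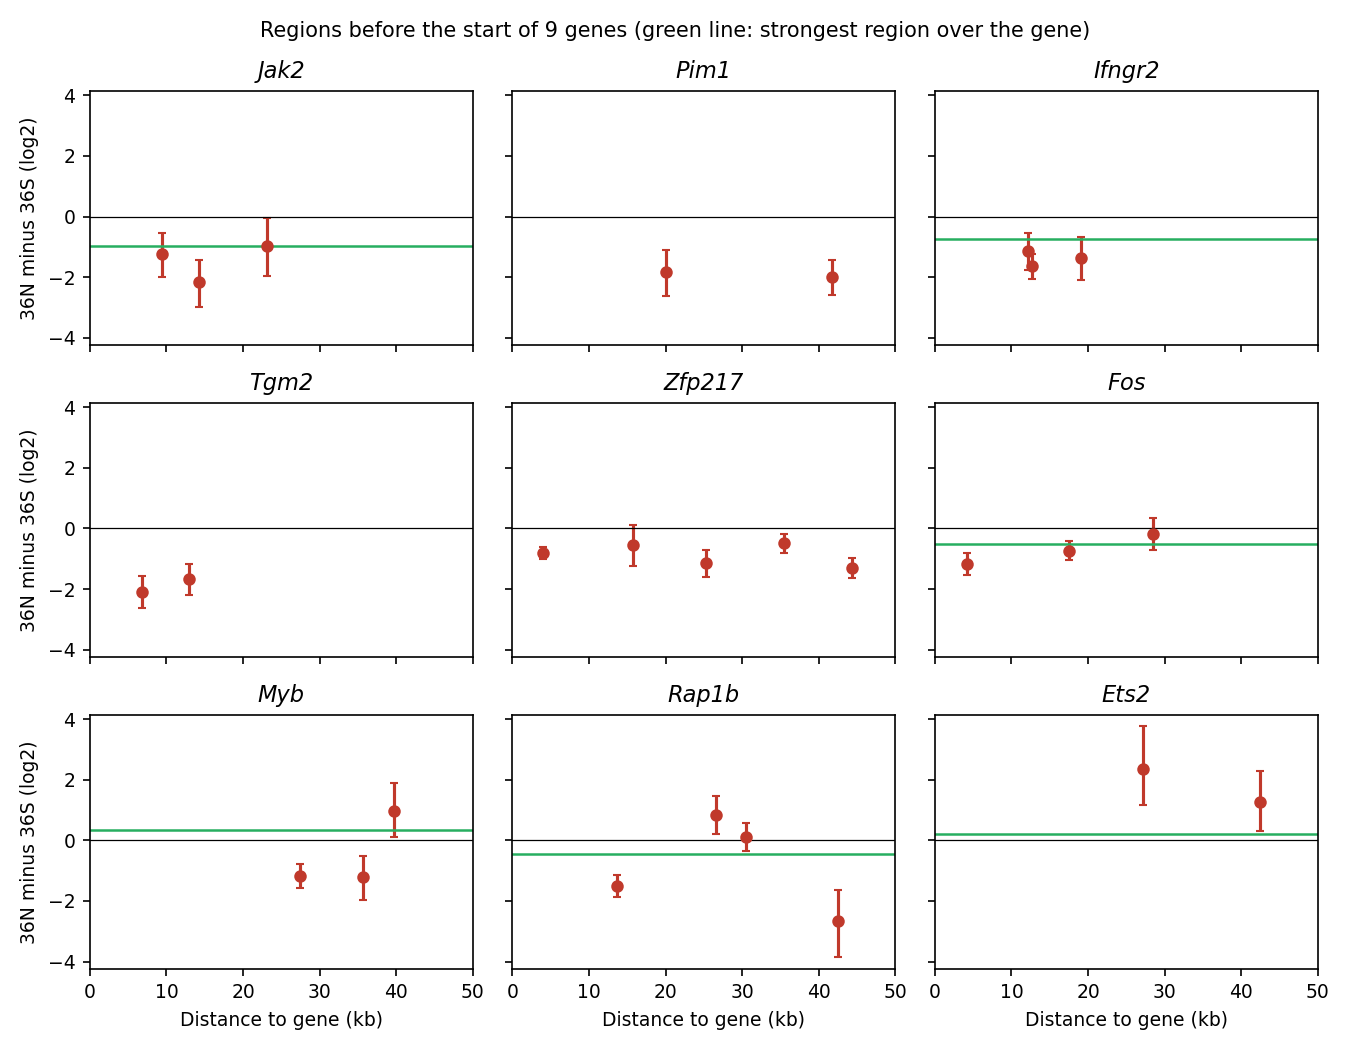
Difference in H3K9ac (36N minus 36S, log2; bars are 95% counting intervals) at each 5′ flanking region of 9 genes against its distance to the gene in kb, with the strongest region over the gene as a green line where the table has one. The genes were chosen after their values were seen. Every region of Jak2, Pim1, Ifngr2, Tgm2, Zfp217 and Fos lies below 0, both of Ets2 lie above 1, and those of Myb and Rap1b lie on both sides.

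Among 17 lists of genes of blood cell types and signalling pathways, 43 of 322 genes had a 5′ flanking region, 56 regions in all. The growth and survival regulators were the list with the most regions past 1 log2 unit. It had 9 regions, of which 4 were lower and 2 higher, with a median of -0.97. All 5′ flanking regions had a median of -0.13, 13.5% lower and 8.01% higher, and the 4 lower regions belong to only 2 genes, Jak2 and Pim1. Jak2, the kinase of the erythropoietin and thrombopoietin receptors, had 3 regions with 58, 83 and 30 reads in 36S and 24, 18 and 15 in 36N. Their differences were -1.25, -2.18 and -0.97, against -0.97 at the strongest region over the gene, so that all of these values lay below 0. Pim1 had its second region 20012 bp away, with 72 and 20 reads (-1.82). Ets2, an ETS family transcription factor, went the other way, with 7 and 35 reads in one region (2.35) and 14 and 33 in the other (1.26), while the gene itself was at 0.20. The regions of Cdk6 (37 and 58 reads, 0.68) and Zfp36l1 (643 and 357, -0.82) did not reach 1 log2 unit.

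The immediate early genes, switched on within minutes of a growth or stress signal, had 10 regions, of which 9 lay below 0. By the rule of size 2 were lower and 0 higher, beside 56.5% below 0 and 13.5% lower among all 5′ flanking regions. Their median was -0.51, near the -0.48 of the strongest group by level, and -0.19 after adjustment for level. Before Fos, a subunit of AP-1, the regions at 4190, 17540 and 28490 bp held 218, 230 and 67 reads in 36S and 95, 136 and 58 in 36N. The differences were -1.17, -0.73 and -0.18, and the region over Fos was -0.51. The nearest was at -0.80 after adjustment for level. The Fosb region held 158 and 53 reads (-1.55). Egr1 had 246 and 140 reads (-0.79), Egr3 had 241 and 174 (-0.44) and Btg2 had 309 and 211 (-0.52). Dusp5 was at -0.49, Klf6 at -0.17 and Egr2 at 0.09.

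The interferon-stimulated genes had 3 regions, all below 0 and 2 of them lower. Among all 5′ flanking regions 56.5% lay below 0 and 13.5% were lower. The Irf1 region, before the gene of a transcription factor induced by interferon, held 540 reads in 36S and 219 in 36N (-1.28), whereas the region over Irf1 held 457 and 394 (-0.19). After adjustment for level this strong region was at -0.60, with quantile normalization at -0.62 and centred at -0.91, so that it no longer counted as lower. Parp14 was at -0.48. The NF-kB and inflammatory genes had 5 regions of which 4 lay above 0, beside 43.5% of all 5′ flanking regions, and none was past 1 log2 unit. These regions belong to 3 genes, 2 of them were at or above the median level, and 1 had an interval above 0. Il10 was at 0.84 (29 and 51 reads) and 0.42, Tnfaip3 at 0.85 and -0.18, and Bcl3 at 0.33.

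Stem and progenitor genes had 8 regions, 2 higher, 2 lower and 5 of them below 0. Among all 5′ flanking regions 8.01% were higher, 13.5% were lower and 56.5% lay below 0. Before Myb, a transcription factor needed by blood stem cells, the region at 27417 bp held 186 reads in 36S and 81 in 36N (-1.17) and that at 35667 bp held 57 and 24 (-1.22). Centred on the median region these were at -0.81 and -0.86. The region at 39717 bp held 18 and 35 (0.99), and the Myb gene region was at 0.36. The Gata2 region, before the gene of a stem and mast cell transcription factor, held 29 and 70 reads (1.30), and the region over Gata2 was at 0.49. The Meis1 region, before a HOX cofactor gene, held 11 and 26 (1.27). Lmo2 was at -0.59, Sox4 at -0.58 and Erg at -0.03. The Hox cluster list had 1 region, before Hoxb4, with 182 and 177 reads (-0.01), and the list of GFI1 target genes had 5, of which only that of Meis1 was past 1 log2 unit. The others of that list were Egr1, Egr2, S100a9 (38 and 49 reads, 0.39) and Ets1 (132 and 127 reads, -0.03).

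The lists of cell type markers were thinly covered by 5′ flanking regions. The granulocyte list had 4 regions and none past 1 log2 unit: both before Fcgr3, an IgG receptor, held more reads in 36N (74 and 121, 0.74; 281 and 394, 0.51), S100a9 was at 0.39 and Camp at -0.50. The stronger Fcgr3 region overlaps RefSeq tRNA genes, and the Camp region holds the start of another RefSeq gene, Gm39427. The monocyte and macrophage list had Ccr2 (210 and 201 reads, -0.04) and Fcgr1 (33 and 51, 0.65). The NK cell list had Klrb1c (218 and 309, 0.53), Ncr1 (0.63) and Gzmb (-0.23), and the Klrb1c region holds the start of another RefSeq gene, Gm34755. The dendritic cell list had Xcr1 (0.15) and Cd209a (0.25), and the B cell list had Blk with 13 reads in each library. The T cell list had Cd28 (18 and 37, 1.07), and the mast cell and basophil list had the Gata2 region already given. The erythroid list had the Tfrc region, before the transferrin receptor gene, with 57 and 27 reads (-1.05, centred -0.69). The megakaryocyte list had Vwf (79 and 39, -0.99) and Fli1 (-0.63 and 0.54), and the endothelial and stromal list had Cdh5 (0.03 and -0.30).

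The same marker lists were also read at the strongest region over each gene, as a check of the labelled tissue. Among all regions overlapping a gene, 12.2% were lower and 7.67% higher by 1 log2 unit or more, with a median of -0.47. The read sums below are not scaled to the library totals, 4989632 reads in 36S regions and 3292869 in 36N regions. Erythroid genes had a region in 9 of 26 cases, with 3941 reads in 36S and 1337 in 36N in sum, and 7 of the 9 were lower by 1 log2 unit or more. T cell genes had 1494 and 707 reads over 12 of 21 genes, with 4 lower, and B cell genes 650 and 258 over 5 of 16. Granulocyte genes had 3360 and 2808 over 9 of 19, with none past 1 log2 unit, and monocyte and macrophage genes 1830 and 2212 over 10 of 18, with 2 higher. Stem and progenitor genes had 1461 and 1634 over 15 of 23. Megakaryocyte genes had 977 and 620 over 7 of 12, dendritic cell genes 2473 and 1265 over 7 of 12, and mast cell and basophil genes 350 and 173 over 3 of 10. NK cell genes had 105 and 145 over 2 of 10, and endothelial and stromal genes 127 and 168 over 3 of 10. The median differences of these lists were -1.68 for erythroid, -0.75 for T cell, -0.11 for B cell, -0.29 for granulocyte and 0.12 for monocyte and macrophage genes. After adjustment for level they were, in the same order, -1.09, -0.50, 0.06, 0.29 and 0.54. The B cell sums thus rest on few regions, since the list had 1 gene higher and 1 lower. The part of these differences in the values of the flanking regions was not tested.

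Regions assigned to microRNA genes were looked at after their values were seen, since several regulate blood cells. There were 20 regions of 17 such genes, with a median of -0.59. By the rule of size 3 were higher and 5 lower, beside 8.01% and 13.5% of all 5′ flanking regions. ChIP signal before such a gene is not a measure of the microRNA itself. The mature arms of the 5 genes described here are given from RefSeq, 5′ to 3′, with the seed, bases 2 to 8, in capitals. All 5 seeds were distinct.
mmu-miR-31-5p: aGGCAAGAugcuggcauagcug
mmu-miR-23a-3p: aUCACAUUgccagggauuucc
mmu-miR-181c-5p: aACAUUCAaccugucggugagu
mmu-miR-155-5p: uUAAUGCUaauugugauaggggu
mmu-miR-148a-3p: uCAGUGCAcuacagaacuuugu

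The region 26889 bp before Mir31, at chr4:88937551-88939050, held 311 reads in 36S and 53 in 36N, a difference of -2.53 with an interval from -2.97 to -2.10. It was the lowest of the microRNA regions. The Mir23a region, 9018 bp from a gene known to favour myeloid over lymphoid fate in mice, held 610 and 252 reads (-1.25), and the region over the gene held 196 and 116 (-0.73). After adjustment for level the flanking region was at -0.55, with quantile normalization at -0.57 and centred at -0.88, so that it no longer counted as lower. Mir181c had 3 regions, which differed among themselves: 160 and 272 reads at 4183 bp (0.79), 244 and 141 at 7483 bp (-0.76), and 325 and 134 at 12433 bp (-1.25, or -0.75 after adjustment for level). These and the Mir23a region lie in a single stretch between the genes Mir181c and Mir23a, chr8:84183151-84199500, so they cannot be taken as separate loci. Mir155, an inflammatory microRNA that drives myeloid expansion when overexpressed, had 45 and 106 reads in a region 10340 bp away (1.26). The Mir148a region, 391 bp away at chr6:51270301-51270900, held 10 and 50 reads (2.35, interval 1.35 to 3.49). The other regions past 1 log2 unit were those of Mir466j (1.21), Mir1965 (-1.52) and 1 of the 2 of Mir5115 (-1.14).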

How the data were processed

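H3K9ac was measured in 2 libraries, 1 per genotype. The authors deposited a log2 value for every one of 20615 regions in either library, with coordinates, an assigned gene, an orientation and a distance. Per the submitters' processing notes, the build was mm10 and the tools were SAMtools, STAR 2.5.0c and CASAVA 1.8.2, with no role stated for any. The sources used here do not say how regions were called, counted and annotated, or how multiply mapped reads were treated. Total sequencing depth is unknown, and no input or spike-in was used here.

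The deposited log2 values were raised to the power of 2. All gave whole reads within 0.05 reads, in 36N after division by the constant 1.0186, which no source used here explains. The 13 regions at 0 reads in 36S are not among the 2248 described. Differences are those of the deposited values, with no pseudocount. Alternatives were centring on the median region, a lowess residual (fraction 0.3), quantile normalization, a mean of at least 20 reads, bin edges at 1 and 20 kb, the nearest region per symbol, leaving out clone names, and leaving out regions that overlap RefSeq genes. The procedure was tested on simulated data with known changes.

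RefSeq of GRCm38.p6 matched 1516 of 1741 symbols. Within each distance bin the text names the 4 highest and 4 lowest regions among those whose mean log2 value is at or above the median of all such regions, leaving out clone, predicted, olfactory, small RNA and pseudogene names, and members of the gene lists. List members below that level, the microRNA genes, genes with several regions, and the printed choice of promoters were chosen after values were seen. Some genes that the rules take are not reported here. The members, lists, distance bins and alternatives were chosen with earlier results of these data known. Python 3.11.15, numpy 2.4.6, pandas 2.3.3, scipy 1.17.1, statsmodels 0.14.6 and matplotlib 3.10.9 were used.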

Additional observations from a re-analysis of the deposited data

How the results depend on the processing

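With 1 library per genotype nothing here carries an error between mice, no library could be left out, and counting error limits single regions to about 30.2% (36S) and 31.4% (36N) at the median level. No paired analysis was possible because each genotype has 1 library and the labels give no replicate numbers. Results are given in the order under 2 kb, 2 to 10 kb and above 10 kb, against medians of 0.02, -0.21 and -0.10, higher counts of 21, 62 and 97, and lower counts of 18, 119 and 166. Centred on the median region, the medians became 0.39, 0.15 and 0.27, with the last 2 on the other side of 0, the higher counts 41, 124 and 205, and the lower counts 7, 59 and 75. The subtracted median of -0.37 is the whole of that shift. With the lowess trend subtracted the middle median was -0.14 and the near lower count 10, and with quantile normalization -0.13 and 10. With at least 20 reads the near median changed sign to -0.15, beside a far median of -0.16, with a near higher count of 16 and a far higher count of 64. With edges at 1 and 20 kb, which move regions between bins, the near lower count was 9, the middle counts 102 and 219, and the far counts 63 and 75, with a far median of -0.029. Fewer regions entered the remaining settings: without clone names the higher counts were 11, 41 and 63 and the near lower count 8, without regions overlapping RefSeq genes the higher counts were 8, 32 and 60 and the near and far lower counts 9 and 98, with a near median of -0.056, and with the nearest region per symbol the far lower count was 98. The other counts stayed within 1.5 times those above, and the other medians kept their sign. Of the named regions none changed sign. The Pdpk1 region moved to -0.86 when centred, and that of Zfp498 to -0.68 centred, -0.38 with lowess and -0.40 with quantile normalization.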

Other observations

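The genes in this part were chosen after their values were seen. Below the median level, where reads are few, the extremes were larger than among the regions named in the report. The region 46154 bp before Fut8, which encodes the enzyme of core fucosylation of glycoproteins, held 168 reads in 36S and 8 in 36N, a difference of -4.37 with an interval from -5.60 to -3.35. The Ccl22 region, before the gene of a chemokine of macrophages and dendritic cells, held 72 and 16 reads (-2.14). The Mbd2 region, before the gene of a protein that binds methylated DNA, held 86 and 18 (-2.23). In the other direction, the Smoc1 region held 13 and 116 reads (3.18) and the Spry2 region, before a feedback inhibitor of growth factor signalling, 8 and 38 (2.27). The Cgn region, within the RefSeq model of the gene of the tight junction protein cingulin, held 8 and 34 (2.11). The Fut8 region thus lay further below 0 than any region named in the report. These regions were picked as extremes, so their span is not that of all regions below the median level.

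Zinc finger genes stood on both sides. Of 91 regions assigned to them 10 were higher and 10 lower by 1 log2 unit or more, beside 8.01% and 13.5% of all 5′ flanking regions, and their median was -0.34. In 26 of these regions a start of a zinc finger gene lay inside the region, with 6 higher and 2 lower. Their median was -0.25 as deposited and 0.30 after adjustment for level. In the 65 without one 4 were higher and 8 lower, with medians of -0.38 as deposited and -0.09 after adjustment for level. The Zfp109 region, which holds that gene's start, had 9 reads in 36S and 92 in 36N (3.38), and the Zscan18 region, which holds that gene's start, had 11 and 62 (2.52).

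On chromosome 15, which the rule leaves out, 109 regions are marked in the same way. Their median was -0.87, with 0 higher and 47 (43.1%) lower by 1 log2 unit or more.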
